A study of Oryza sativa with 8 samples.

Results

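Of 32166 rice loci measured in flag leaves, 9 were lowest in plants labelled GSK2-RNAi oswrky53 and stood at least 2-fold higher in every library of the other genotypes. They were chosen on the authors' normalized counts, with transcript rows summed per locus. A locus needed at least 10 normalized counts in all 5 wild type and GSK2-RNAi libraries, and its highest GSK2-RNAi oswrky53 library had to be at most 0.5 of the lowest of those 5. In all, 21375 loci reached the minimum and 11 of them the ratio. The 2 left out by the rule, Os09g0417600 and Os09g0417800, have close identifiers on chromosome 9 and were paired by hand with the names WRKY76 and WRKY62. Because the levels in GSK2-RNAi oswrky53 chose the loci, those levels are described below without a test.

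Messenger RNA was sequenced from 8 flag leaf libraries of the rice cultivar ZH11, of which 2 were wild type (numbered 1 and 3). The label GSK2-RNAi was given to 3 libraries and the label GSK2-RNAi oswrky53 to the other 3. The titles of all 8 libraries also carry the mark CK, so the groups do not differ in it. Plants labelled GSK2-RNAi carry an RNA interference construct directed at GSK2, and those labelled GSK2-RNAi oswrky53 join it with a mutation of WRKY53, so both altered genotypes share the construct and no library has the mutation alone. The labels give neither the promoter of the construct, the kind of mutation and the number of lines, nor whether separate plants were used for each library, so the p-values measure only the spread between libraries, which may be technical. Harvest was at heading by the sample labels and at booting by the series text.

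GSK2 is a kinase that holds back brassinosteroid signalling, the steroid hormone pathway that shapes leaf angle, grain size and plant height in rice. WRKY factors are plant transcription factors that bind W-box elements of promoters. In rice, WRKY53 is known as a positive regulator of brassinosteroid signalling, and GSK2 is known to phosphorylate it. Rice locus identifiers give the chromosome in their first digits and rise along it. Neighbours here are loci next to each other in the order of identifiers among the measured loci, so a locus that was not measured is passed over. The deposited table names no product for any of the 9 loci, and the reference table used here does not hold these identifiers, so they are given by identifier with no role.

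The transcript of the targeted gene went against its label. In the libraries labelled GSK2-RNAi, GSK2 (Os05g0207500) was at 794.8, 741.4 and 819.6 normalized counts, above the 104.6 and 98.55 of the wild type, and the libraries labelled GSK2-RNAi oswrky53 lay between, at 182.0, 219.1 and 155.0. Reads from the construct and an exchange of labels cannot be told apart in these values, so the groups are called by their labels throughout and every direction given rests on those labels. WRKY53 (Os05g0343400, a name not checked against the reference table) ranged from 5971 to 11610 in the libraries labelled GSK2-RNAi oswrky53 and from 3209 to 8560 in the other 5, so its transcript level does not mark the mutation. Summed normalized counts were between 20.87 and 28.03 per library in units of 1e6. They were lowest in the libraries labelled GSK2-RNAi, at 20.87 to 21.71. The wild type was at 27.74 and 28.03 and GSK2-RNAi oswrky53 at 25.98 to 27.04. The smallest common step in the values put 1 read near 0.723 to 1.097 normalized counts. Of the 4 leaf mesophyll markers, which include a Rubisco small subunit gene, the summed level was 1179000 to 1312000 in the wild type, 530500 to 662300 in GSK2-RNAi and 992800 to 1341000 in GSK2-RNAi oswrky53. The largest part of this sum was RCA, a name not checked against the reference table, with means of 599000, 276100 and 474800. The Rubisco small subunit gene was at 186900 and 231300 in the wild type and ranged from 83480 to 203900 in GSK2-RNAi oswrky53. The summed level of 3 panicle and floral markers was 11170 to 14000, 5072 to 8378 and 11330 to 15830 in the same order. Most of this sum was MADS14, with means of 11800, 6631 and 12110. MADS1 went another way, with means of 119.8, 123.1 and 339.7, and MADS15 ranged from 189.1 to 2043 within GSK2-RNAi oswrky53. The summed level of 3 anther and tapetum markers was 208.3 to 259.9, 105.6 to 160.3 and 190.7 to 227.7, and that of the endosperm marker GLUA1 15.17 to 22.37, 7.4 to 23.33 and 19.86 to 25.24. The meristem marker OSH1 was at most 3.265 in any library. On every one of these lists the summed level of the GSK2-RNAi oswrky53 libraries overlapped that of the wild type libraries, and the part of cell makeup in the results was not tested. In such bulk samples fewer cells of a type and less RNA per cell cannot be told apart.

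The 9 loci covered a range from a value of 0 to a level just under the ratio of 0.5. The ratio of the highest GSK2-RNAi oswrky53 library to the lowest of the other 5 had a median of 0.303 over the 9 loci and of 1.59 over the 21375 loci that reached the minimum. The rule itself held the first median at or under 0.5, and the ratio sets a highest value against a lowest. The medians therefore only place the threshold and are no test. Just inside the rule were Os10g0432200 at 0.461, Os03g0294600 at 0.474 and Os05g0502101 at 0.492. Just outside were Os06g0271300 at 0.515, Os02g0299000 at 0.52 and Os06g0165900 at 0.531, so no gap separates the last members from the next loci. Of the 25325 loci tested, 1.98% had every GSK2-RNAi oswrky53 library below the other 5 and 2.89% had every one above. With the 2-fold demand and the minimum, few loci were left in either direction: the mirrored rule, with the lowest GSK2-RNAi oswrky53 library at 10 or more and at least 2-fold above the other 5, found 52. The same rules applied to the libraries labelled GSK2-RNAi found 153 loci lowest there and 537 highest there. The number of loci found depended on single libraries, since a rule with fewer libraries asks less: all 9 loci met it whichever library was left out, together with others that brought the number to 16 without wild type replicate 1, to 25 without wild type replicate 3, and to 18, 20 and 21 without GSK2-RNAi oswrky53 replicate 1, 2 and 3.

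**Figure D1:**
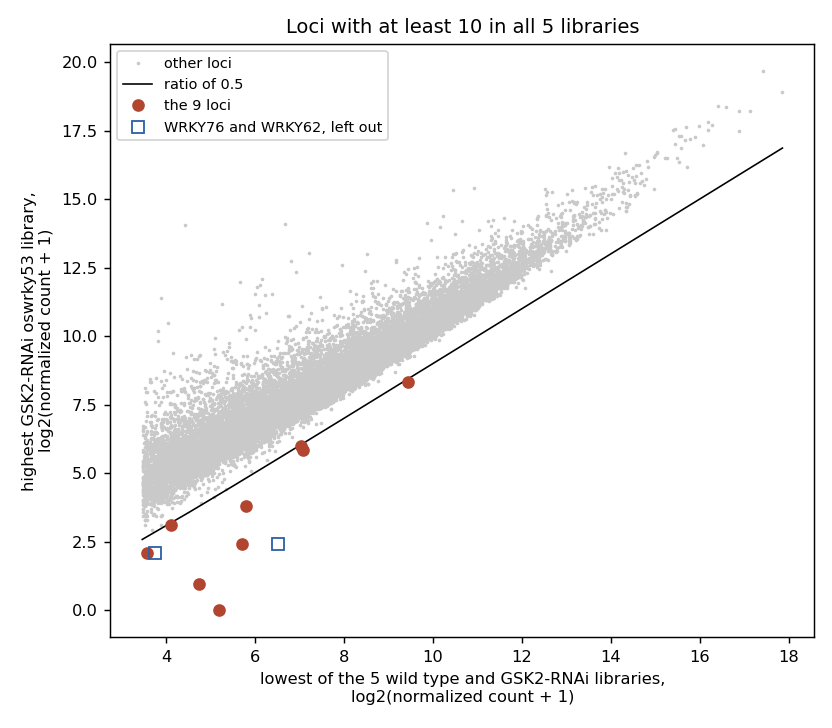
For each of the 21375 loci with at least 10 normalized counts in all 5 wild type and GSK2-RNAi libraries, the highest GSK2-RNAi oswrky53 library is plotted against the lowest of those 5, both as log2(normalized count + 1). The 9 loci (filled red points) and the 2 loci left out (open squares) lie below the line at a ratio of 0.5, some far below it and some on its edge.

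Transcripts of 4 loci were close to absent in GSK2-RNAi oswrky53, with every library below 5 normalized counts. Os06g0197575 (chromosome 6) was at 223.8 and 35.15 normalized counts in the wild type and at 177.7, 66.5 and 161.2 in GSK2-RNAi, and it was listed at 0 in all 3 GSK2-RNAi oswrky53 libraries. No other of the 21375 loci was listed at 0 in all 3, and no fold can be given for it. Os05g0368000 (chromosome 5) was at 233.5 and 25.5 in the wild type, at 29.2, 113.9 and 142.4 in GSK2-RNAi, and at 0, 0 and 0.949 in GSK2-RNAi oswrky53, where the value above 0 is about that of 1 read. Both loci varied widely among the 5 other libraries, 6.37-fold and 9.16-fold from lowest to highest, and in both the lowest of the 5 was wild type replicate 3 and the highest wild type replicate 1.

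In the other two near-absent loci the wild type libraries lay closer together. Os08g0332100 (chromosome 8) went in steps over the genotypes, at 355.2 and 230.5 normalized counts in the wild type, at 58.4, 51.2 and 73.0 in GSK2-RNAi, and at 4.39, 2.18 and 4.18 in GSK2-RNAi oswrky53. Its mean was 292.8 ± 88.2 in the wild type (SD, n = 2), 60.8 ± 11.1 in GSK2-RNAi (SD, n = 3) and 3.58 ± 1.22 in GSK2-RNAi oswrky53 (SD, n = 3), which is 81.7-fold and 16.98-fold below the other means, and no 2 groups overlapped. Os05g0359833 (chromosome 5) was low everywhere, at 10.94 and 12.4 in the wild type, 22.7, 16.3 and 24.5 in GSK2-RNAi, and 0, 3.31 and 0 in GSK2-RNAi oswrky53. With a minimum of 20 in place of 10 it was not a member.

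The remaining 5 loci kept a measurable transcript in at least 2 of the 3 GSK2-RNAi oswrky53 libraries. Os11g0461000 (chromosome 11) was at 60.01 and 54.11 normalized counts in the wild type, at 73.5, 146.4 and 133.2 in GSK2-RNAi, and at 12.1, 13.1 and 7.32 in GSK2-RNAi oswrky53, so that its 3 groups did not overlap and GSK2-RNAi stood highest. It was the only member with more than 1 transcript row: of 3 rows, the first held between 92.6% and 97.6% of the locus in the 5 other libraries and all of it in GSK2-RNAi oswrky53, where the other 2 rows were listed at 0. Those 2 rows were at most 4.62 in any library, so the difference in the locus is that of its first row. Os06g0720601 (chromosome 6) was at 167.4 and 201.2 in the wild type, at 202.2, 229.4 and 134.8 in GSK2-RNAi, and at 0, 14.1 and 57.05 in GSK2-RNAi oswrky53. Its GSK2-RNAi oswrky53 libraries ranged from none to a level well above the near-absent loci, while its other 5 libraries lay within 1.70-fold of each other.

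The last 3 members were at a lower level in GSK2-RNAi oswrky53, with all libraries of that genotype close together. Os10g0432200 (chromosome 10), the member with the highest normalized counts, was at 886.3 and 1031 in the wild type, at 688.7, 781.2 and 862.1 in GSK2-RNAi, and at 305.2, 317.5 and 237.0 in GSK2-RNAi oswrky53, a mean 3.34-fold below the wild type and 2.71-fold below GSK2-RNAi. Os05g0502101 (chromosome 5) was at 219.2 and 202.7, at 303.7, 128.9 and 156.5, and at 55.7, 57.7 and 63.4 in the same order, 3.58-fold and 3.33-fold below the other means. Os03g0294600 (chromosome 3) was near the minimum, at 16.6 and 16.1, at 24.9, 21.6 and 23.3, and at 5.49, 7.64 and 6.26, and with a minimum of 20 it too was not a member.

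**Figure D2:**
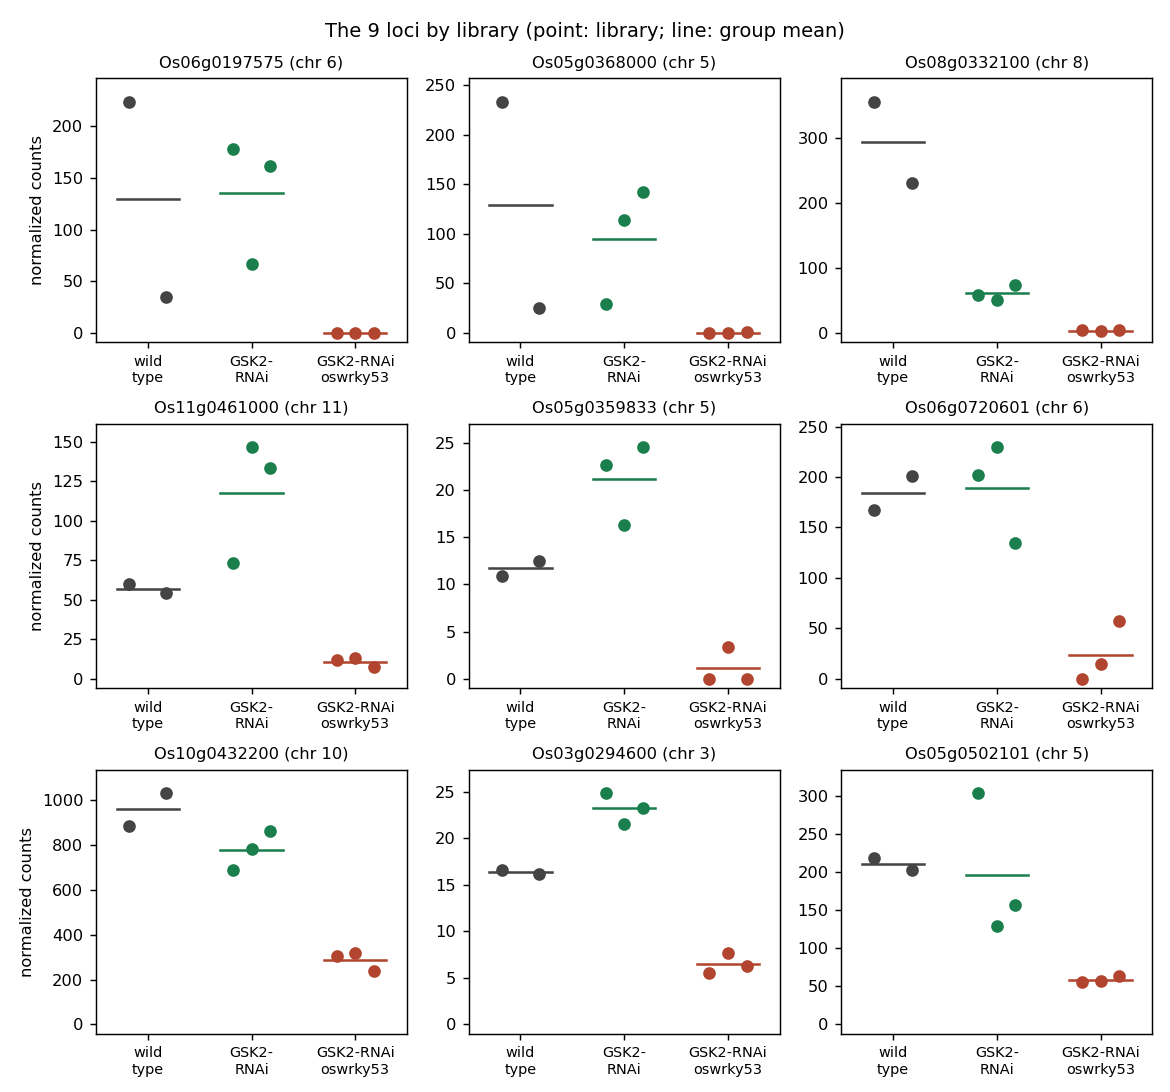
Normalized counts of the 9 loci in each library (points) with the group mean (lines), on a linear axis per locus, ordered from the lowest ratio (top left) to the highest (bottom right). The GSK2-RNAi oswrky53 points lie lowest in every panel, at 0 in all 3 libraries for Os06g0197575 and between 237.0 and 317.5 for Os10g0432200, and the wild type points of Os06g0197575 and Os05g0368000 lie far apart.

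The rule set no direction between the libraries labelled GSK2-RNAi and the wild type, although it used the lowest of these 5 libraries. That contrast asked whether the 9 loci already differed with the construct when WRKY53 was not mutated. With limma on log2(normalized count + 1) and Benjamini-Hochberg adjustment over all 25325 loci tested, 1 of the 9 loci was called lower and 0 higher, against 24.8% of all loci called in either direction, 11.6% lower and 13.3% higher. All 9 loci passed the filter on low values, and 2 of them had an unadjusted p under 0.05, a threshold for which no share of all loci is given. The median log2 fold change of the 9 loci was 0.0077 and that of all loci tested 0.016. With 1 call in 9 loci the count is not above the background, and nothing particular to the set is read from it.

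Os08g0332100 was the locus that fell in the libraries labelled GSK2-RNAi. It had a log2 fold change of -2.23 ± 0.37 (SE, lower in all 3 libraries than in both wild type libraries, limma adjusted p = 0.00439), and the change stayed between -2.54 and -1.85 over the alternatives, with adjusted p from 0.00202 to 0.044. For Os11g0461000 every GSK2-RNAi library was above both wild type libraries, but the log2 fold change of 0.97 ± 0.39 missed the threshold (SE, limma adjusted p = 0.103). Of the alternatives run, it passed only when totals were made equal (1.35, limma adjusted p = 0.0258), a scaling that moved the median of all loci in this contrast to 0.40.

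None of the other 7 members passed this test, which does not show that they were equal in the 2 genotypes. Os05g0359833 and Os03g0294600 were higher in all 3 GSK2-RNAi libraries than in the wild type, at log2 fold changes of 0.79 ± 0.74 and 0.48 ± 0.38 (SE, limma adjusted p = 0.475 and 0.397). Os10g0432200 was lower in all 3, at -0.30 ± 0.17 (adjusted p = 0.229), and with equal totals at 0.08. Groups without overlap were common between these genotypes, since 29.1% of all loci tested were higher and 26.2% lower in every GSK2-RNAi library than in the wild type. In the remaining 4 members the libraries of both genotypes overlapped. The difference for Os06g0197575 was 0.47 ± 0.76, and it was -0.85 without wild type replicate 3 and 1.79 without wild type replicate 1. For Os05g0368000 it was 0.0077 ± 0.98, with -1.57 and 1.58 when the same libraries were left out. Os05g0502101 differed by -0.20 ± 0.33 and Os06g0720601 by 0.0052 ± 1.36. All 8 libraries share the estimate, so the error of every member includes the spread among its GSK2-RNAi oswrky53 libraries, which was wide for Os06g0720601. With only the wild type and GSK2-RNAi libraries fitted, the limma adjusted p was 0.195 for Os05g0359833 and 0.991 for Os06g0720601.

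**Figure D3:**
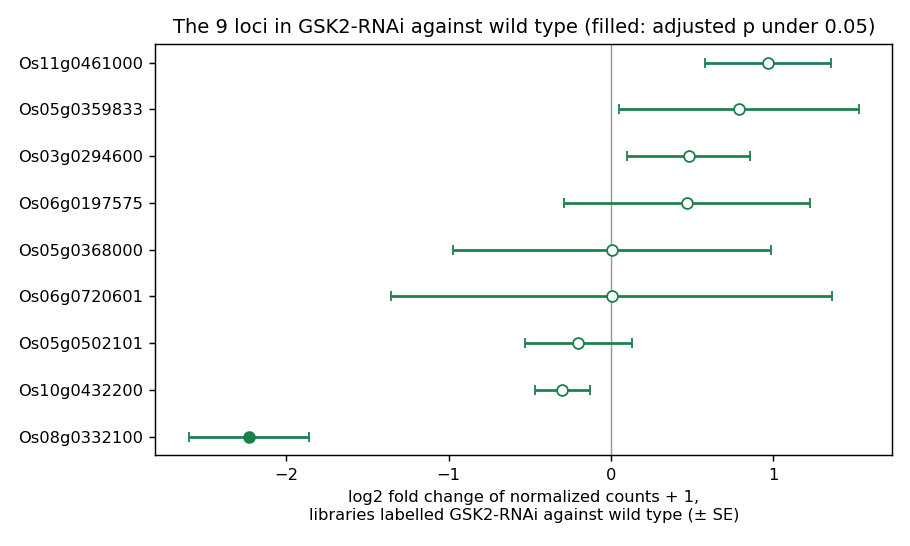
Log2 fold change of normalized count + 1 between the libraries labelled GSK2-RNAi and the wild type for the 9 loci, with the standard error of the limma fit as bars and a filled point where the adjusted p is under 0.05. Os08g0332100 is the filled point, at -2.23, and the other 8 lie between -0.30 and 0.97.

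The loci next to the members in the order of identifiers were examined for the same difference. None of the 9 loci was next to another, and of their 18 neighbours 15 were tested. In GSK2-RNAi oswrky53 against GSK2-RNAi, 3 of the 15 were called lower and 2 higher, against 7.7% and 8.78% of all loci. In GSK2-RNAi oswrky53 against the wild type, limma called 0 of the 15 in either direction, beside 0.336% of all loci (0.308% higher and 0.0276% lower). At an unadjusted p under 0.05 there were 4 of the 15. No share of all loci is given at that threshold, so the 4 cannot be set beside the 0.336%. Both comparisons share the GSK2-RNAi oswrky53 libraries. The median log2 fold change of the 15 neighbours was -0.29 in the first comparison and 0.047 in the second, beside -0.0072 and 0.022 for all loci tested.

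The neighbour of Os08g0332100 moved the other way. Os08g0332150, the next identifier, was at 59.7 and 54.9 normalized counts in the wild type, at 22.7, 65.3 and 37.96 in GSK2-RNAi, and at 354.7, 202.4 and 297.7 in GSK2-RNAi oswrky53. Every GSK2-RNAi oswrky53 library lay above the other 5, and it was 1 of the 52 loci of the mirrored rule and the only neighbour of a member among them. Its log2 fold change was 2.82 ± 0.38 against GSK2-RNAi (SE, limma adjusted p = 0.00399, between 0.00326 and 0.0196 over the alternatives) and 2.26 ± 0.42 against the wild type, which missed the threshold (adjusted p = 0.0855). The 2 loci together had a mean of 350.2 in the wild type, 102.8 in GSK2-RNAi and 288.5 in GSK2-RNAi oswrky53, and Os08g0332150 supplied nearly all of the last sum. Normalized counts are not per length, so this sum does not compare molecules, and whether the loci overlap or can share reads is not given in the sources used here. On the other side, Os08g0331900 was higher in GSK2-RNAi, at 25.96, 31.5 and 59.3, than in the wild type (4.34 and 2.85) and in GSK2-RNAi oswrky53 (1.1, 7.65 and 6.24). It was called lower in GSK2-RNAi oswrky53 than in GSK2-RNAi, by a log2 fold change of -2.88 ± 0.64 (adjusted p = 0.0199), a call that did not hold when GSK2-RNAi replicate 2 or 3 was left out (adjusted p = 0.0672 and 0.0757).

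Of all 18 neighbours, 4 had every GSK2-RNAi oswrky53 library below the other 5. These were 4 of the 6 neighbours on chromosome 5 and 0 of the other 12, a split by chromosome made after the values were seen. Of the 15 neighbours tested, 3 lay so, beside 1.98% of all loci tested. Os05g0368100, which follows Os05g0368000, was at 11.8 and 1.93 in the wild type, at 6.49, 8.25 and 9.66 in GSK2-RNAi, and was listed at 0 in all 3 GSK2-RNAi oswrky53 libraries. It did not pass the filter on low values, and its wild type replicate 3 was the lower, as in its neighbour. On the other side, Os05g0367900 was at 44.2 and 50.4, at 70.3, 71.3 and 58.4, and at 35.3, 38.4 and 34.1 in the same order. Its call against GSK2-RNAi (-0.87 ± 0.22 on the log2 scale, adjusted p = 0.0309) was lost without any 1 of the 6 libraries of these groups (adjusted p from 0.0582 to 0.113) and without a filter (0.0503). Os05g0359966, which follows Os05g0359833, was at 16.2 and 27.95, at 43.25, 27.55 and 13.97, and at 7.82, 10.02 and 2.99. Os05g0502000, which precedes Os05g0502101, was at 1524 and 867, at 1847, 883.4 and 989.6, and at 406.3, 550.8 and 798.5. Against GSK2-RNAi neither passed the threshold, at -1.87 ± 0.56 (adjusted p = 0.0557) and -1.06 ± 0.35 (adjusted p = 0.0761), nor did they against the wild type, at -1.61 ± 0.63 and -1.03 ± 0.39 (adjusted p = 0.338 and 0.331).

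The other neighbours called against GSK2-RNAi were close to the wild type. Os03g0294200, before Os03g0294600, had means of 235.4 ± 28.8 in the wild type, 471.0 ± 20.8 in GSK2-RNAi and 267.0 ± 29.95 in GSK2-RNAi oswrky53, and its log2 fold change was -0.82 ± 0.14 (SE, limma adjusted p = 0.00755). Os06g0720500, before Os06g0720601, had means of 2165 ± 215, 1387 ± 81.1 and 2228 ± 401, and rose by 0.67 ± 0.14 (adjusted p = 0.0184), a call that did not hold with equal totals (0.35, adjusted p = 0.0991) or when GSK2-RNAi replicate 2 or 3 was left out (adjusted p = 0.0679 and 0.0649). Around Os06g0197575 and Os10g0432200 no neighbour was called: Os06g0198500 was at 25.6 to 34.4 in GSK2-RNAi oswrky53 and 20.5 to 41.2 in the other 5 libraries, and Os10g0432300 at 210.5 to 291.4 and 275.1 to 300.7.

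**Figure D4:**
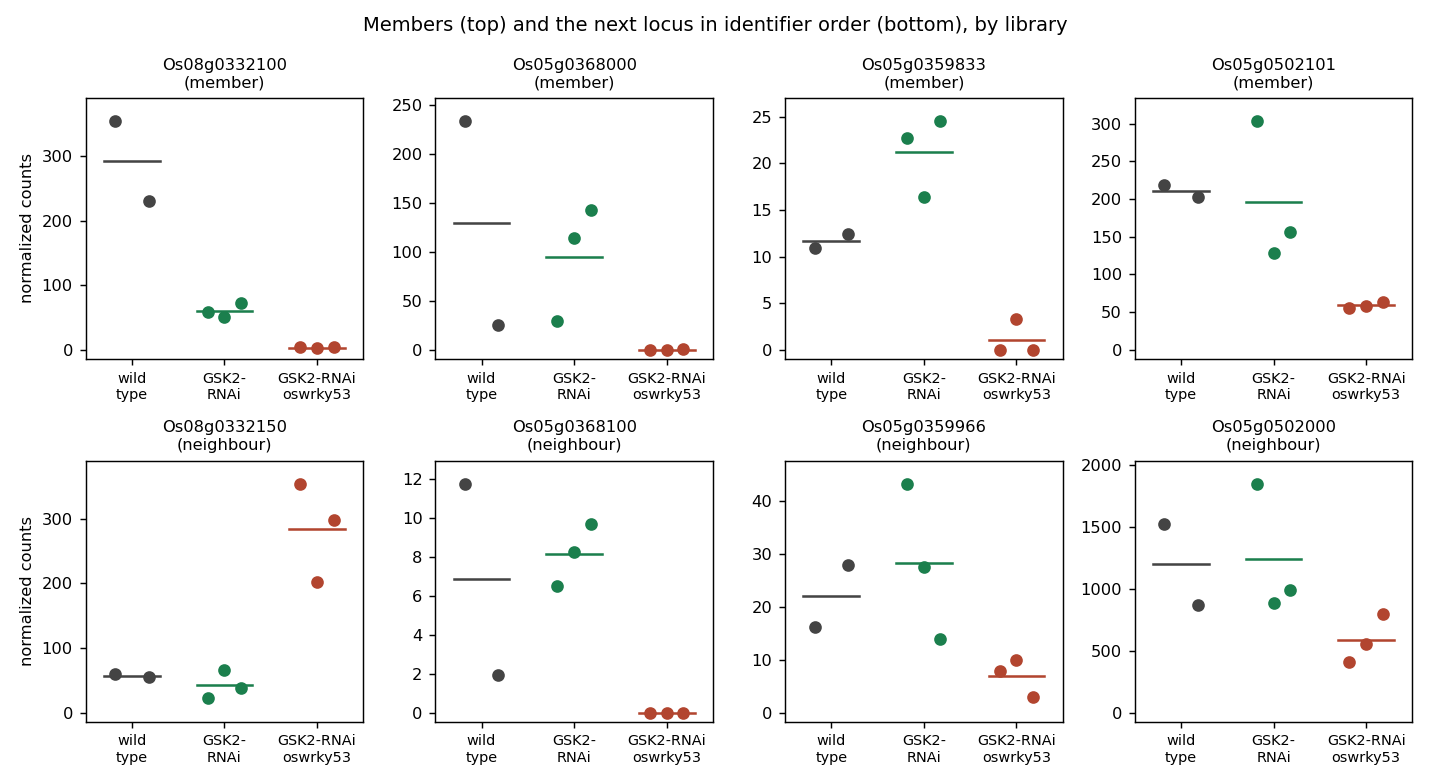
Normalized counts by library of 4 members (top) and of 1 adjacent locus each (bottom), with group means as lines and a linear axis per panel; these pairs were chosen after their values were seen. Os08g0332150 is highest in GSK2-RNAi oswrky53, at 202.4 to 354.7, where Os08g0332100 is lowest. The adjacent loci shown for the 3 members on chromosome 5 are lowest in GSK2-RNAi oswrky53, as those members are. On the other side of Os05g0359833 and Os05g0502101 the adjacent loci, not shown, were not lowest there. Os05g0359700 was at 673.5 to 809.9 there and at 513.1 and 592.1 in the wild type, and Os05g0502200 at 6.59 to 19.84 and at 15.88 and 4.74.

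By chromosome, 3 of the 9 loci were on chromosome 5, which also carries WRKY53 and GSK2 and held 8.13% of the loci that reached the minimum. Of the others 2 were on chromosome 6 and 1 each on chromosomes 3, 8, 10 and 11. Os05g0359833 and Os05g0368000 follow WRKY53 by 67 and 107 places in the order of identifiers, with 39 loci between them, and Os05g0502101 follows it by 866 places. Of the 52 loci of the mirrored rule, 4 were on chromosome 5. Among the 25 loci on each side of WRKY53, a window chosen after the values were seen, there was no member and no locus of the mirrored rule. Of the 44 tested there, 3 were called lower and 7 higher in GSK2-RNAi oswrky53 than in GSK2-RNAi, beside 7.7% and 8.78% of all loci. The median log2 fold change was 0.092 beside -0.0072. Against the wild type limma called 0, and 8 had an unadjusted p under 0.05, a threshold for which no share of all loci is given. No coordinates are given, because the reference table is of another build.

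Some features of the identifiers can be set beside those of other loci. A transcript row ending in 00, where most loci have rows numbered from 01, was found for 4 of the 9 loci (44.4%: Os06g0197575, Os05g0368000, Os05g0359833 and Os05g0502101), for 16.6% of the 21375 loci that reached the minimum and for 26 of the 52. Identifiers that do not themselves end in 00, which lie between the evenly spaced ones, made up 4 of the 9 (44.4%), 11.05% and 26.9% in the same order. The members' median level, 83.0 normalized counts over all libraries, was below the 340.3 of the loci that reached the minimum, and that of the 52 was 31.0. For the 9 and the 52 these levels include the libraries that the rules required to be low, so they are not independent of the choice. These shares describe 9 loci and were not tested.

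The pair left out of the set, WRKY76 (Os09g0417600) and WRKY62 (Os09g0417800), belongs to WRKY group IIa, factors known in rice as repressors of defence genes. WRKY76 was at 2124 and 90.2 normalized counts in the wild type, at 281.2, 705.2 and 1551 in GSK2-RNAi, and at 3.30, 4.41 and 1.04 in GSK2-RNAi oswrky53. WRKY62 was at 78.1 and 12.35, at 68.1, 156.6 and 293.4, and at 0, 3.28 and 0. With them, 6 of the 21375 loci were below 5 in all 3 GSK2-RNAi oswrky53 libraries, and in 4 of these 6 (WRKY76, WRKY62, Os06g0197575 and Os05g0368000) the wild type libraries differed at least 6-fold, replicate 1 being the higher. Such a gap between the wild type libraries was found in 67 of the 21375 loci (0.313%). The limits of 5 and of 6-fold were not planned, and WRKY62 (6.33-fold) and Os06g0197575 (6.37-fold) lie just above the second. The share over all loci is therefore a description and no test. A mean over the wild type describes these 4 loci poorly. The other 2 loci of the group IIa list were not lowest in GSK2-RNAi oswrky53. WRKY71 (Os02g0181300) was at 184.8 and 241.8 in the wild type, at 644.5, 745.0 and 768.6 in GSK2-RNAi, and at 991.3, 532.6 and 390.7 in GSK2-RNAi oswrky53. Os06g0649000, paired by hand with WRKY28 but not checked, was at 2.89 and 6.64, at 90.8, 46.7 and 76.2, and at 29.7, 18.6 and 8.34 in the same order. Against GSK2-RNAi, where 7.7% of all loci were called lower, 3 of the 4 loci of this list were called lower, WRKY76 and WRKY62 chosen on these values among them. The third was Os06g0649000, with a log2 fold change of -1.97 ± 0.52 (SE, limma adjusted p = 0.0371, between 0.0144 and 0.116 over the alternatives), a call that was lost without any 1 GSK2-RNAi library (0.116, 0.0695 and 0.108) or without GSK2-RNAi oswrky53 replicate 2 or 3 (0.0737 and 0.092). WRKY71 differed there by -0.28 ± 0.30 (adjusted p = 0.572). Neither of these 2 loci differed from the wild type in GSK2-RNAi oswrky53 past the threshold (log2 fold change 1.48 ± 0.34 and 1.70 ± 0.58, limma adjusted p = 0.147 and 0.281). In both, every GSK2-RNAi oswrky53 library was above both wild type libraries. Of the 4 loci of the list, limma called 0 there. All 4 had an unadjusted p under 0.05, for which no share is given, and 2 were chosen on these values. WRKY71 and Os06g0649000 were called higher in GSK2-RNAi than in the wild type, as were 13.3% of all loci. Their log2 fold changes were 1.76 ± 0.34 and 3.68 ± 0.58 (SE, limma adjusted p = 0.00789 and 0.00365). Without wild type replicate 1 WRKY71 differed by 1.56.

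Lists of rice diterpenoid genes, which make defence compounds, held none of the 9 loci. The momilactone list includes MAS (Os04g0179200), a symbol not in the reference table. The chromosome 2 list includes CYP76M7 (Os02g0569900), whose symbol stood on another chromosome there. The counts of both lists stand beside 13.3% of all loci called higher and 11.6% lower in GSK2-RNAi against the wild type, and 8.78% and 7.7% in GSK2-RNAi oswrky53 against GSK2-RNAi. For counts at an unadjusted p no share of all loci is given. Of 4 tested loci of the momilactone list 1 rose and 0 fell in GSK2-RNAi against the wild type, 0 rose and 1 fell in GSK2-RNAi oswrky53 against GSK2-RNAi, and 0 were called in GSK2-RNAi oswrky53 against the wild type by limma, with 0 at an unadjusted p under 0.05. The locus that was called is CPS4 (Os04g0178300), a diterpene cyclase gene, at 2.88 and 10.4, at 74.6, 268.6 and 193.1, and at 12.05, 9.80 and 2.10 normalized counts in the wild type, GSK2-RNAi and GSK2-RNAi oswrky53. Its GSK2-RNAi oswrky53 libraries overlapped the wild type, which the rule did not allow for the 9 loci. Of 6 tested loci of the chromosome 2 list, 1 rose and 2 fell in the first comparison, 2 rose and 1 fell in the second, and 0 were called in the third, with 1 at an unadjusted p under 0.05. The median log2 fold changes of the momilactone list were 0.91, -1.11 and 0.19 in the 3 comparisons and those of the chromosome 2 list -0.035, -0.555 and -0.02, beside 0.016, -0.0072 and 0.022 for all loci tested.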

How the data were processed

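The deposited values are normalized counts, a signal of 0 or more, of 38335 transcripts of 32166 loci in 8 libraries. Build IRGSP-1.0, kallisto 0.46.1 and DESeq2 1.26.0 are named without roles in the submitters' processing notes. The annotation and the scaling the authors used are not given in the sources used for these data. Because low values lay only near multiples of the value of 1 read, no count model was run. Each total divided by that value gives about 19.87 to 38.77 reads per library in units of 1e6.

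Values were summed per locus. The 25325 loci that reached 10 normalized counts in 2 or more libraries were fitted as log2(value + 1), which understates changes of low loci, with limma 3.58.1 in R 4.3.3 (3 group means over all 8 libraries, eBayes with an intensity trend), and an adjusted p under 0.05 was a call. The fit was also run on simulated data with independent noise and few changed loci, unlike these data, so that run does not measure its error here. Other steps used Python 3.11.15, numpy 2.4.6, pandas 2.3.3 and matplotlib 3.10.9. Alternatives changed the pseudocount (0.5 or 5), filter, scaling, trend, libraries and block.

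All members were named, with neighbours and lists. Members and lists were chosen with earlier results of these data known. Gene names were paired with identifiers by hand. A pair passed where the symbol stood on the same chromosome of assembly ASM3414082v1 at a relative rank within 0.05. Pairs that did not pass were kept in the lists.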

Additional observations from a re-analysis of the deposited data

How the results depend on the processing

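The 9 loci were all kept by the rule with quantile normalization and with a minimum of 5 (11 loci each), and 8 of 9 with equal totals. A stricter ratio, 1 part in 3, kept 5, as its construction implies, and the rule on single transcript rows found 34 loci, all 9 among them. Leaving out 1 library gave 10 to 25 loci. Of the members, 2 were called in GSK2-RNAi against the wild type with equal totals and 1 under every other alternative run, leaving out each library included.

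Over all loci, calls numbered 6290 in GSK2-RNAi against the wild type (9515 with equal totals, of which 8051 were higher, against 3364 of 6290; 3670 to 6911 without 1 library), 4172 in GSK2-RNAi oswrky53 against GSK2-RNAi (7338 with equal totals, of which 6193 were lower, against 1949 of 4172; 1575 to 4354) and 85 in GSK2-RNAi oswrky53 against the wild type (53 to 64). The lowest numbers in the first 2 comparisons came without GSK2-RNAi replicate 2. Alternatives for the last 2 comparisons and for neighbours and list loci were added after seeing the data. Beyond fewer samples, the cause of these shifts was not tested.

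With the replicate number as a block, these counts were 3894, 2621 and 32. Libraries sharing a number did not deviate together (r from -0.211 to 0.149), so the numbers were not taken as pairs. No call of a member changed with the block. Among the other loci so examined, the call of Os05g0367900 against GSK2-RNAi was lost with it (adjusted p = 0.0766), as was that of Os06g0649000 (0.0817).

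Differences of uncalled members in GSK2-RNAi against the wild type changed sign as follows. Os05g0368000 went to -0.02 with pseudocount 5, -0.16 with quantile normalization, -0.05 with the replicate block and between -1.57 and 1.58 without 1 library. Os06g0720601 went to -0.13 with quantile normalization, -0.24 with the block and between -0.15 and 0.23 without 1 library. Os05g0502101 went to 0.18 and Os10g0432200 to 0.08 with equal totals. Without 1 library Os05g0502101 lay between -0.57 and 0.05 and Os06g0197575 between -0.85 and 1.79. Loci with few reads, such as Os05g0359833 and Os03g0294600, are limited by depth.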
